A study of Gallus gallus with 300 samples.

Results

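Solute carriers are the membrane proteins that move amino acids, sugars, ions, metals, vitamins and metabolites across the cell surface, vesicles and mitochondria. Their genes were examined in single cells of the utricle, an organ of balance in the chicken inner ear. The set was every gene symbol that starts with SLC and a digit, apart from SLC17A6, that reached 10 counts per 1000000 (CPM) in at least 5 of the 300 cells. The members make up 76.4% of such symbols and 1.75% of the 10730 genes of any kind that reached this level. Of the 58 SLC symbols that did not, 7 had 0 counts in every cell and 51 had some. The 10 members just inside the limit, at 5 cells, had highest values of 29.9 to 982 CPM, and the 7 symbols just outside it, at 4 cells, had 31.1 to 705 CPM. In RefSeq's gene table (assembly GRCg7b) all but 3 members were found by symbol, and the spans of 89 of them overlapped another annotated gene. The library method does not mark strand, so reads from bases that both genes share cannot be told apart. Overlap of exons was not measured, and overlapping genes are named below for some members only.

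All cells came from wild type chickens at posthatch day 7, with no experimental treatment in the labels. The sensory epithelium was peeled off its stroma after thermolysin and several epithelia were pooled before dissociation with Accutase. Viable cells were sorted singly into wells in 2 batches, which the labels do not tie to cells, so values within a batch could not be computed, and libraries were made with the full-length Smart-seq2 method. The labels give 1 group on 5 plates, numbered 2 to 6, and tie no animal to a cell. Each class of cells described here is therefore 1 sample, no difference was tested, and no p-value is given.

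Cells with under 1000 genes or under 50000 counts, 24 in all, were left out, and the rest held 66490.0 to 1234012 counts. Hair cells, the mechanosensory cells, were taken as cells with OTOF (the synaptic calcium sensor otoferlin) at 100 CPM or more and GJB6 under 1000 CPM. Supporting cells, the non-sensory cells of the epithelium, had GJB6 (a gap junction connexin) at 1000 CPM or more and OTOF under 100 CPM. Neither gene is a member. The plates 2 to 6 held 30, 36, 29, 38 and 36 hair cells, and 13, 10, 26, 20 and 15 supporting cells, 84 in all. The median hair cell had 442454 counts and the median supporting cell 312776. Another 18 cells had both genes and 5 had neither, and both groups were kept out of the comparison. The marker lists include OTOF and GJB6, whose separation was fixed by the gate. Of the 9 measured hair cell markers, 5 reached 10 CPM in at least 50% of hair cells and 0 did in supporting cells. Of the 9 supporting cell markers, 0 did so in hair cells and 8 in supporting cells. Summed hair cell markers ran from 9285 to 11616 CPM per plate in hair cells and from 6.49 to 49.5 CPM in supporting cells. Summed supporting cell markers ran from 80.4 to 202.1 CPM in hair cells and from 32094.5 to 39143.5 CPM in supporting cells. Within these sums OTOF averaged 4717 CPM in hair cells, and GJB6 averaged 24167 CPM in supporting cells. Without the gene used for the gate, the median hair cell marker stood in supporting cells at 0.00369% of its hair cell level, and the median supporting cell marker in hair cells at 0.386% of its supporting cell level. Dark cell, stromal and melanocyte lists had 1 measured marker each, endothelial and immune lists 2 each, and glial and neuron lists 3 each. None of these markers reached 10 CPM in 50% of either class. Summed by plate, the endothelial markers ran from 13.3 to 45.6 CPM in hair cells and from 57.2 to 249.9 CPM in supporting cells, without overlap. The immune markers ran from 21.4 to 67.6 CPM in hair cells and from 35.96 to 392 CPM in supporting cells, and the neuron markers from 45.8 to 145.99 CPM in hair cells and from 20.1 to 337 CPM in supporting cells. Of the endothelial markers, PECAM1 averaged 28.3 CPM in hair cells and 107.6 CPM in supporting cells. CLDN5 went the other way, with 2.96 CPM in hair cells and 0.385 CPM in supporting cells. Of the immune markers, CD74 averaged 11.8 CPM in hair cells and 206.3 CPM in supporting cells. LCP1 went the other way, with 23.2 CPM in hair cells and 0 in supporting cells. PTPRC, of all white blood cells, was at 0.623 CPM in hair cells and at 0 in supporting cells. The part of these markers in the members' values was not tested.

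**Figure D1:**
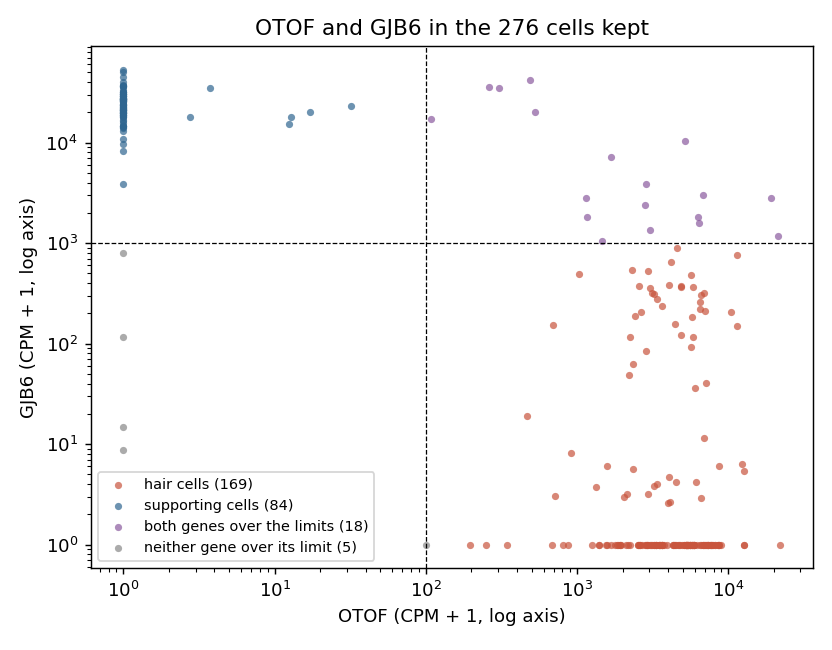
OTOF (x axis) against GJB6 (y axis) in each cell kept, as CPM + 1 on log axes; dashed lines are the limits of 100 CPM for OTOF and 1000 CPM for GJB6. The hair cells lie at the lower right and the 84 supporting cells at the upper left, where no cell has OTOF over 30.9 CPM.

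Values below are mean CPM over the plate means, ± SD over the 5 plates, and CPM are not corrected for transcript length, so levels are compared between cells and not between genes. A difference is the log2 ratio of mean CPM + 1. A member was called higher or lower in hair cells when the ratio passed 4-fold, went the same way on all 5 plates, and at least 25% of cells in the higher class had 10 CPM or more. Shares of cells carry exact binomial (Clopper-Pearson) 95% intervals, which cover counting error only. The roles given for genes are those known from mammals.

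Solute carriers are central to the sensory epithelium. Hair cells load glutamate into synaptic vesicles for release onto vestibular nerve fibres, and supporting cells take up the released glutamate. The apical face of the epithelium borders the potassium-rich endolymph, whose acidity and calcium are set in part by bicarbonate, proton and calcium carriers, and hair bundle work and transmitter release need mitochondrial supply of ATP.

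As a family the members were divided between the classes much as all measured genes were. The log2 ratio, hair cells over supporting cells, was above 0 for 96 members and below 0 for 92, with a median of 0.08, against a median of 0.11 over all 10730 measured genes. Taken plate by plate the median over members lay higher, between 0.25 and 1.001 (SD 0.334). So did the median over all measured genes, between 0.13 and 0.93 (SD 0.315). On all 5 plates 38 members were higher in hair cells and 15 were lower. Of all measured genes, 2274 were higher on all 5 plates and 1007 were lower. In hair cells 16 members reached 10 CPM in at least 50% of cells, and in supporting cells 6 did. Of all 10730 measured genes, 1825 did so in hair cells and 705 in supporting cells. With every cell thinned to 50000 counts, the median hair cell held 37 members among 2929 genes, and the median supporting cell 20 members among 1547.5 genes. Reads of all members made up 1.42% of the counts of the median hair cell and 1.26% of those of the median supporting cell. Members called higher in hair cells numbered 10 (5.32%), where 6.18% of all measured genes were called higher. Members called lower numbered 7 (3.72%), where 3.91% of all genes were. Both shares are near the background. With the difference of mean log2 values in place of the ratio of means, 21 members were called higher and 5 lower. By that measure the median moved to 0.29 over members and to 0.43 over all genes. The share of all genes called by it is not given here, so the counts are not read as a trait of the members. Among the 17 called members, thinning to 50000 counts moved the share of cells at 10 CPM by at most 3.55 percentage points in hair cells and 3.57 in supporting cells. Over all members the largest shift was 9.47 points in hair cells and 4.76 in supporting cells. In 3 members (SLC15A2, SLC51B and SLC9A2) hair cells had 0 counts, and in 14 members supporting cells did. Supporting cells were fewer and held fewer counts, and no share over all genes is given for this. The difference is therefore not read as a trait of the members. At a floor of 3 cells, a count of 0 allows a share of up to 1.78% of hair cells and 3.57% of supporting cells, and the exact 95% interval reaches 2.16% of hair cells and 4.30% of supporting cells.

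**Figure D2:**
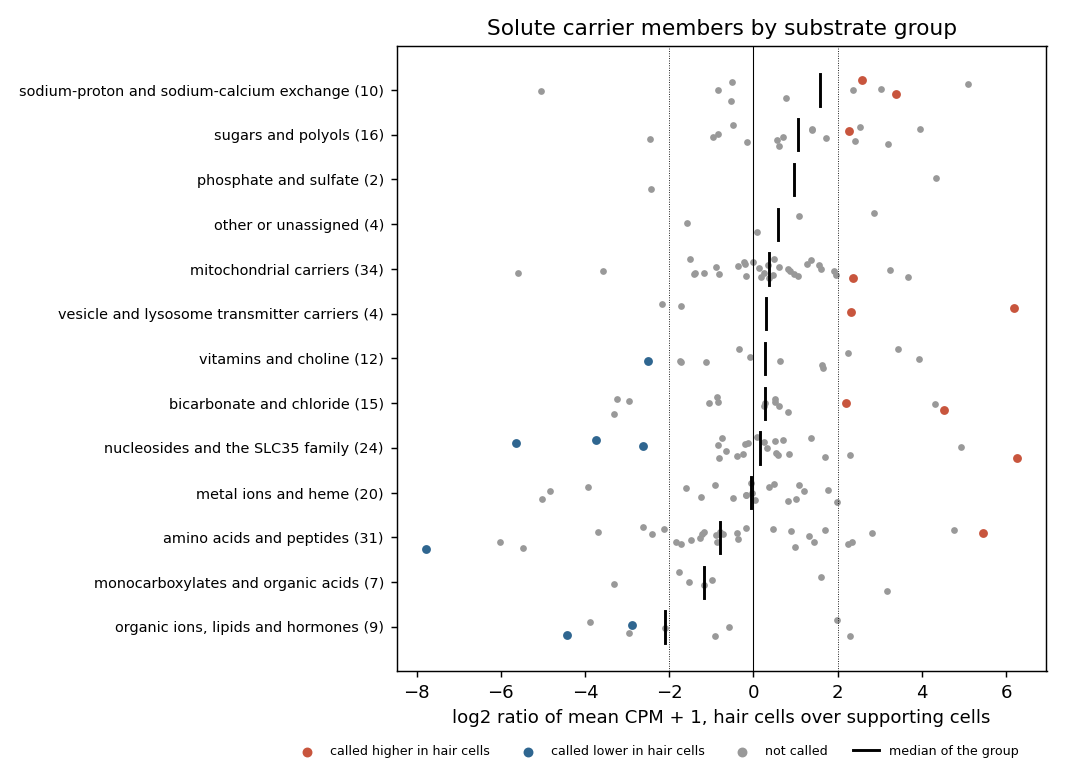
Log2 ratio of mean CPM + 1, hair cells over supporting cells (x axis), for the members by substrate group (y axis, number of members in parentheses); vertical offsets within a group are only for visibility. Coloured points are the 10 members called higher and the 7 called lower in hair cells, black bars are group medians, and dotted lines mark 4-fold; group medians run from -2.11 for organic ions, lipids and hormones to 1.57 for sodium-proton and sodium-calcium exchange.

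Carriers of vesicles and lysosomes had 4 members, of which 2 were called higher in hair cells and 0 lower. SLC17A8 encodes VGLUT3, the carrier that fills hair cell synaptic vesicles with glutamate. On plates 2 to 6 it averaged 1247, 995, 1756, 882 and 592 CPM in hair cells, against 0, 0, 1.41, 68.8 and 0 CPM in supporting cells. The ranges do not meet, and the supporting cell mean came from plate 5 almost alone. Its mean was 1095 ± 438 CPM in hair cells and 14.05 ± 30.6 CPM in supporting cells, a log2 ratio of 6.19. At 10 CPM or more it was found in 92.3% of hair cells (87.2 to 95.8%) and in 2 of 84 supporting cells (2.38%, 0.290 to 8.34%). SLC17A5, the lysosomal sialic acid exporter sialin, averaged 234.5, 143.1, 228.6, 153.1 and 12.8 CPM in hair cells by plate, against 101.2, 3.02, 23.2, 14.95 and 8.97 CPM in supporting cells. It was higher in hair cells on all 5 plates with a log2 ratio of 2.31, yet the plate ranges overlap, with hair cells lowest on plate 6. With cells of at least 1500 genes and 100000 counts, SLC17A5 no longer met the rule, at a log2 ratio of 3.33. The other two members were not called. SLC18B1, a vesicular polyamine carrier, had 74.3 ± 22.2 CPM in hair cells and 247.7 ± 96.6 CPM in supporting cells, lower in hair cells on all 5 plates. SLC17A9, the vesicular nucleotide carrier, had 14.01 ± 13.9 CPM in hair cells and 66.6 ± 58.6 CPM in supporting cells.

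Amino acid and peptide carriers were the second largest group, with 31 members, 1 called higher and 1 called lower in hair cells, and a median log2 ratio of -0.80. SLC1A3 encodes GLAST, the glutamate and aspartate uptake carrier of glia and of inner ear supporting cells. By plate it averaged 0.104, 29.9, 0.0824, 12.7 and 9.71 CPM in hair cells, against 2344, 2361, 1919, 2557 and 3376 CPM in supporting cells. The mean was 10.5 ± 12.2 CPM in hair cells and 2511 ± 537 CPM in supporting cells, a log2 ratio of -7.77, the lowest of any member with 1 CPM added. Ratios of the 3 members with 0 counts in hair cells are bounds only. It reached 10 CPM in 2.37% of hair cells (0.649 to 5.95%) and in 73 of 84 supporting cells (86.9%, 77.8 to 93.3%). SLC7A14, a lysosomal member of the cationic amino acid carrier family, showed the opposite pattern. Its plate means were 297.5, 226.98, 238.7, 283.4 and 348 CPM in hair cells, against 0, 27.1, 0.0879, 0 and 0 CPM in supporting cells. Hair cells averaged 278.99 ± 48.7 CPM and supporting cells 5.44 ± 12.1 CPM (log2 ratio 5.44), and 78.1% of hair cells and 1.19% of supporting cells reached 10 CPM. Its span overlaps that of CLDN11 in RefSeq, so part of its reads may belong to that gene.

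Other glutamate and glutamine carriers were less divided. SLC1A1, the neuronal glutamate carrier EAAC1, had 31.2 ± 23.2 CPM in hair cells and 3.58 ± 8.01 CPM in supporting cells, higher in hair cells on 4 of 5 plates. The astrocyte type carrier SLC1A2 reached 10 CPM in 1.18% of hair cells and 3.57% of supporting cells. SLC38A1, a sodium-coupled carrier of glutamine, had 260.3 ± 72.3 CPM in hair cells and 189.7 ± 174.1 CPM in supporting cells, with overlapping plates, and was found in 60.4% of hair cells and 29.8% of supporting cells. SLC38A2, its close relative, had 97.6 ± 42.8 CPM in hair cells and 236.2 ± 145.6 CPM in supporting cells. The low members included SLC15A2, a peptide carrier with 0 counts in hair cells and 64.3 ± 82.6 CPM in supporting cells (7.14% at 10 CPM or more), and SLC7A2, a cationic amino acid carrier with 26.1 ± 9.60 CPM in hair cells (10.1%) and 0 counts in supporting cells. Against a floor of 3 counts over the class, SLC15A2 was at least 1293-fold lower in hair cells and SLC7A2 at least 204.4-fold higher, but neither reached 10 CPM in 25% of a class. Such folds, here and below, are of reads pooled over a class, without molecular identifiers. They do not cover the spread between cells and are not bounds on the difference between the classes. SLC6A6, the taurine carrier, had 0.546 ± 1.17 CPM in hair cells and 18.96 ± 23.1 CPM in supporting cells.

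Enzymes that handle the same amino acids were taken from 7 lists of partner genes. Of all measured genes, 6.18% were called higher in hair cells and 3.91% lower. The lists are short and were chosen with earlier results known, so counts of partner calls are not read as a trait of a list. Of 6 measured genes of glutamate, glutamine and GABA metabolism, GLUL was called lower in hair cells. GLUL, glutamine synthetase, had 0 counts in hair cells and 19.3 ± 16.96 CPM in supporting cells, where 30.95% of cells reached 10 CPM, at least 406-fold lower in hair cells. The GLUL call was lost without plate 2, at -3.80, and with 10 CPM added in place of 1 CPM, at -1.55. Of 10 measured genes of taurine, cysteine and glutathione metabolism, 0 were called higher and 2 lower. CDO1, the dioxygenase that starts taurine synthesis from cysteine, averaged 0.183, 0, 0.496, 0.337 and 11.3 CPM by plate in hair cells, against 1882, 1082, 1271, 1209.6 and 1099.8 CPM in supporting cells (log2 ratio -8.57). GGT1, the surface enzyme that breaks down glutathione, had 0.223 ± 0.340 CPM in hair cells and 571 ± 109.4 CPM in supporting cells (log2 ratio -8.87). Both differ between the classes on every plate without overlap. CSAD and ADO, of the same list, were not called and were rare in supporting cells. CSAD had 1.35 ± 2.61 CPM there, with 2 of 84 cells at 10 CPM or more. ADO had 12.6 ± 28.3 CPM, with 1 such cell. No taurine pathway is therefore read from CDO1 alone. Of the supporting cells, 21 of 84 had SLC1A3 and GLUL both at 10 CPM or more, 52 had SLC1A3 alone, 5 had GLUL alone and 6 had neither.

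Sodium-proton and sodium-calcium exchangers had the highest median of any substrate group, 1.57, with 2 of 10 members called higher in hair cells and 0 lower. SLC9A9 and SLC9A7 encode NHE9 and NHE7, exchangers that regulate the acidity of endosomes and the trans-Golgi network. SLC9A9 averaged 2505, 2268, 1419, 2435 and 1554 CPM by plate in hair cells, against 246.6, 145.2, 304, 269.7 and 3.75 CPM in supporting cells. Every hair cell plate lies above every supporting cell plate. The mean was 2036 ± 511 CPM in hair cells and 193.8 ± 121.5 CPM in supporting cells (log2 ratio 3.39), and the gene reached 10 CPM in 88.8% (83.001 to 93.1%) of hair cells and 29.8% (20.3 to 40.7%) of supporting cells. SLC9A7 averaged 790.4, 725, 980.0, 804 and 592 CPM by plate in hair cells, against 292.1, 157.9, 93.3, 6.64 and 99.6 CPM in supporting cells. Its mean was 779 ± 140.4 CPM in hair cells and 129.9 ± 105.5 CPM in supporting cells (log2 ratio 2.57), again with no overlap between plates. Both exchangers were at 10 CPM or more in 79.3% of hair cells, with 16 cells holding SLC9A9 alone, 13 SLC9A7 alone and 6 neither. SLC9A8, an exchanger found on the Golgi, had 113.2 ± 58.8 CPM in hair cells and 163.4 ± 112.9 CPM in supporting cells with overlapping plates. Of the calcium carriers, SLC24A3, a potassium-dependent sodium-calcium exchanger, had 83.4 ± 45.6 CPM in hair cells and 15.3 ± 28.1 CPM in supporting cells. It passed 4-fold (log2 ratio 2.37) but was higher on 4 of 5 plates, so it was not called, although it was without plate 5 (log2 ratio 4.63). SLC8A1, the plasma membrane sodium-calcium exchanger NCX1, had 33.4 ± 24.1 CPM in hair cells, of which 11.2% reached 10 CPM, and 0 counts in supporting cells, at least 255.6-fold higher. SLC9A2, an exchanger of the cell surface, had 0 counts in hair cells and 31.9 ± 41.99 CPM in supporting cells, of which 5.95% reached 10 CPM.

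Bicarbonate and chloride carriers had 15 members, 2 called higher in hair cells and 0 lower. SLC26A4 encodes pendrin, the chloride-bicarbonate exchanger whose loss causes deafness with an enlarged vestibular aqueduct in humans. By plate it averaged 45.6, 82.7, 104.9, 61.6 and 48.1 CPM in hair cells, against 10.2, 0, 0, 0 and 0 CPM in supporting cells (log2 ratio 4.51). It reached 10 CPM in 30.2% of hair cells (23.4 to 37.7%) and in 1 supporting cell (1.19%), on plate 2. SLC4A8, a sodium-driven chloride-bicarbonate exchanger of neurons, averaged 147.9, 92.6, 350.3, 213.9 and 131.9 CPM by plate in hair cells, against 12.4, 75.4, 44.1, 12.5 and 56.2 CPM in supporting cells. The hair cell plates lie above the supporting cell plates, with a log2 ratio of 2.20 and shares of 72.2% of hair cells and 13.1% of supporting cells. That ratio is close to the limit, and it fell short of it without plate 4 (1.88) and without plate 5 (1.92). With cells of at least 1500 genes and 100000 counts it was 1.26. SLC4A4, the sodium-bicarbonate cotransporter NBCe1, had 68.3 ± 21.6 CPM in hair cells and 125.5 ± 69.99 CPM in supporting cells, and SLC12A2, the sodium-potassium-chloride cotransporter NKCC1, had 89.01 ± 58.2 CPM in hair cells and 57.7 ± 21.2 CPM in supporting cells. Neither was called. SLC26A5, whose product prestin is the motor of mammalian outer hair cells, reached 10 CPM in 2.37% of hair cells and 3.57% of supporting cells.

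Mitochondrial carriers were the largest group, with 34 members, 1 called higher in hair cells and 0 lower, and a median log2 ratio of 0.36. Summed over the group, hair cells had 5365 ± 300.2 CPM and supporting cells 3288 ± 584 CPM. The higher sum in hair cells rests on SLC25A6, SLC25A5, SLC25A3 and SLC25A14, whose values are given below. The means of the remaining members add up to fewer CPM in hair cells than in supporting cells. The sum is therefore not read as a trait of the group, in which 21 members had a log2 ratio above 0 and 13 below. SLC25A22, a carrier that brings glutamate into the mitochondrion, averaged 223.6, 182.2, 80.1, 110.1 and 192.5 CPM by plate in hair cells, against 27.2, 49.1, 38.7, 10.3 and 23.7 CPM in supporting cells. Plates do not overlap, the log2 ratio was 2.36, and the gene reached 10 CPM in 76.3% of hair cells and 19.05% of supporting cells. With cells of at least 1500 genes and 100000 counts the ratio fell short of the limit, at 1.74. SLC25A6 encodes an ADP/ATP exchanger and took the most reads of the group. Its mean was 2507 ± 340.0 CPM in hair cells and 966 ± 247.6 CPM in supporting cells. It was higher in hair cells on all 5 plates with a log2 ratio of 1.38, under the 4-fold limit. The related exchangers SLC25A5 (547 ± 61.7 CPM in hair cells and 297.5 ± 124.8 CPM in supporting cells) and SLC25A4 (80.5 ± 15.6 CPM in hair cells and 40.5 ± 46.4 CPM in supporting cells) are similar in sequence, so reads could be split among the 3 genes and their separate values are uncertain. SLC25A3, the phosphate carrier, had 630.1 ± 73.9 CPM in hair cells and 358 ± 62.4 CPM in supporting cells, and SLC25A14, an uncoupling protein relative, had 362 ± 72.2 CPM in hair cells and 119.2 ± 59.8 CPM in supporting cells. For SLC25A6, SLC25A5, SLC25A3 and SLC25A14 every hair cell plate was above every supporting cell plate. SLC25A15, the ornithine carrier, lay the other way, with 1.82 ± 1.85 CPM in hair cells and 134.99 ± 96.8 CPM in supporting cells (log2 ratio -5.59), but only 21.4% of supporting cells reached 10 CPM, under the 25% needed. Of 12 other mitochondrial pore and carrier genes measured, such as VDAC1 and MPC1, 0 were called in either direction and their median log2 ratio was -0.0010. Of 4 measured genes of creatine and adenylate energy shuttling, 2 were called higher in hair cells and 0 lower. CKB, brain type creatine kinase, had 31336 ± 2556 CPM in hair cells and 1506 ± 246.6 CPM in supporting cells (log2 ratio 4.38). AK1, an adenylate kinase, had 92.9 ± 14.7 CPM in hair cells and 5.06 ± 5.60 CPM in supporting cells (log2 ratio 3.95).

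**Figure D3:**
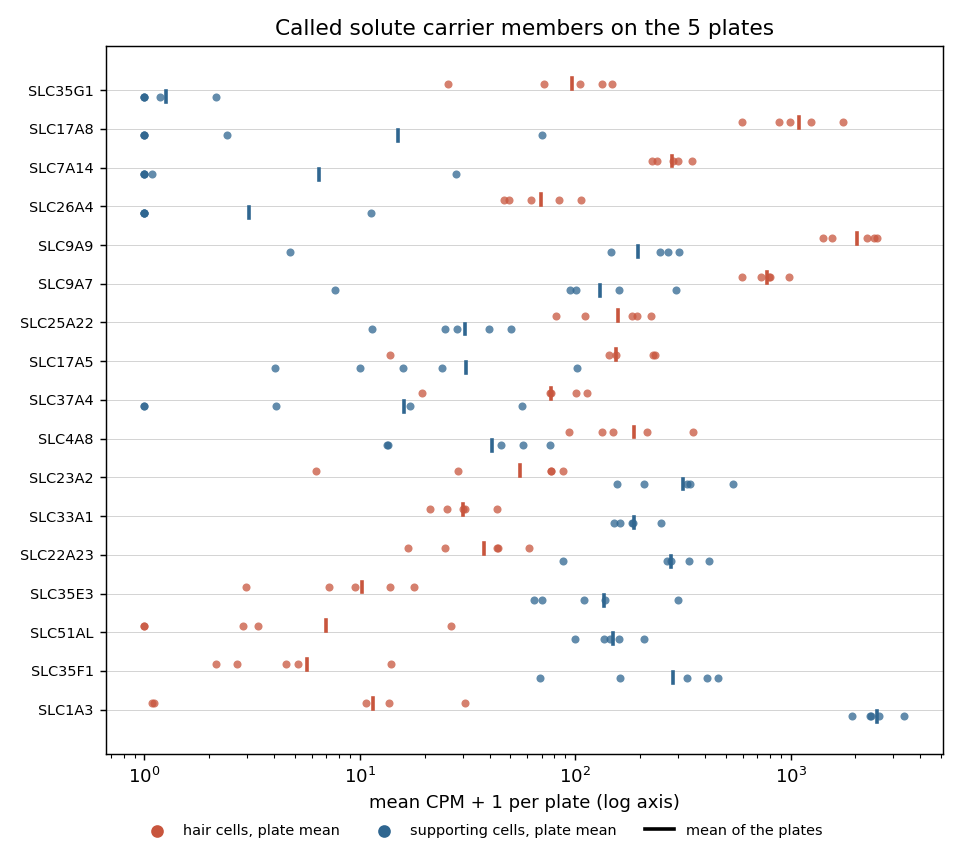
Mean CPM + 1 on each of the 5 plates (log x axis) for the 10 members called higher in hair cells and the 7 called lower, ordered by log2 ratio, with hair cells drawn above supporting cells in each row and a vertical bar at the mean of the plates. Plate ranges overlap for SLC17A5 and SLC37A4 and not for the others drawn. These members were already chosen by 4-fold and the same direction on every plate, and no share without overlap over all genes is given here.

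Sugar and polyol carriers had 16 members, 1 called higher in hair cells and 0 lower, with a median log2 ratio of 1.05. SLC37A4, which moves glucose 6-phosphate into the endoplasmic reticulum, averaged 75.4, 18.4, 99.4, 111.9 and 76.4 CPM by plate in hair cells, against 0, 0, 55.6, 3.10 and 16.1 CPM in supporting cells. It was higher in hair cells on each plate (log2 ratio 2.28), but the plate ranges overlap. The call was lost without plate 2 (1.98) and without plate 5 (1.85). SLC2A8, the intracellular glucose carrier GLUT8, had the most reads of the group, with 174.3 ± 36.4 CPM in hair cells and 106.2 ± 83.1 CPM in supporting cells, and was not called (log2 ratio 0.71). The general glucose carrier SLC2A1 had 46.9 ± 11.2 CPM in hair cells and 52.6 ± 29.1 CPM in supporting cells, and SLC5A3, the myo-inositol carrier, had 86.3 ± 31.5 CPM in hair cells and 25.3 ± 21.7 CPM in supporting cells. SLC2A11 had 14.4 ± 11.3 CPM in hair cells (13.02% at 10 CPM or more) and 0 counts in supporting cells. Its value is uncertain, since the related SLC2A11L5 is annotated too and had 16.5 ± 17.4 CPM in hair cells and 23.4 ± 22.3 CPM in supporting cells.

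Of the 7 carriers of monocarboxylates and organic acids, 0 were called, and the median log2 ratio was -1.17. SLC16A7 encodes MCT2, a high affinity carrier of lactate and pyruvate. By plate it averaged 202.4, 173.2, 145.9, 87.8 and 101.6 CPM in hair cells, against 236.98, 317, 119.96, 398 and 351 CPM in supporting cells, with overlapping ranges. The mean was 142.2 ± 47.98 CPM in hair cells and 284.6 ± 109.2 CPM in supporting cells (log2 ratio -0.996). It reached 10 CPM in 44.4% of hair cells (36.8 to 52.2%) and 58.3% of supporting cells (47.1 to 69.001%). The proteins that bring these carriers to the cell surface were more divided. BSG, basigin, was called lower in hair cells, with 574, 706, 523, 698 and 591 CPM by plate in hair cells, against 3396, 5222, 3398, 3561 and 4629 CPM in supporting cells (log2 ratio -2.71). EMB, embigin, had 0 counts in hair cells and 190.9 ± 79.8 CPM in supporting cells (32.1% at 10 CPM or more), at least 3598-fold lower in hair cells. The list they come from covers accessory subunits of carriers in general, with 3 measured genes, of which 2 were called lower and 0 higher. The remaining gene, CHP1, was not called (log2 ratio -1.06). Among hair cells 73 had SLC16A7 and BSG at 10 CPM or more, 2 SLC16A7 alone, 88 BSG alone and 6 neither. Of 84 supporting cells, 49 had both and 35 had BSG alone. BSG was found in 95.3% of hair cells and 100% of supporting cells, so no link between SLC16A7 and BSG is read. Among 15 measured genes of glycolysis, lactate and glycogen metabolism, 0 were called higher and 1 lower, with a median log2 ratio of 0.67. The gene called lower was GBE1, the glycogen branching enzyme. It had 17.7 ± 12.4 CPM in hair cells and 180.6 ± 183.3 CPM in supporting cells (log2 ratio -3.28), with overlapping plate ranges. LDHA, LDHB, PDHA1 and PGK1 were higher in hair cells on all 5 plates without overlap, and under 4-fold. PGAM1, ENO1, PKM, PDK4, PYGL and PYGB had ratios below 0, with overlapping plate ranges. LDHB, the lactate dehydrogenase subunit typical of oxidative tissues, had 4937 ± 656 CPM in hair cells and 3096 ± 330.0 CPM in supporting cells.

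Nucleoside carriers and the SLC35 family, whose known carriers bring nucleotide sugars into the Golgi and endoplasmic reticulum, had 24 members, 1 called higher in hair cells and 3 lower. SLC35G1, for which no role is given here, had a log2 ratio of 6.26, the highest of any member with 1 CPM added, though the 14 members with 0 counts in supporting cells have bounds only. By plate it averaged 103.9, 70.9, 24.6, 146.9 and 132.1 CPM in hair cells, against 1.15, 0, 0.176, 0 and 0 CPM in supporting cells. It reached 10 CPM in 34.3% of hair cells (27.2 to 42.001%) and 1 of 84 supporting cells. SLC35F1 lay the other way, with 3.55, 1.16, 12.9, 1.68 and 4.16 CPM by plate in hair cells, against 67.6, 159.6, 457, 329 and 410.0 CPM in supporting cells (log2 ratio -5.65). It reached 10 CPM in 5.33% of hair cells and 53.6% of supporting cells. In supporting cells 41 of 84 had SLC35F1 together with SLC1A3, 32 had SLC1A3 alone, 4 SLC35F1 alone and 7 neither. SLC35E3 had 9.26 ± 5.76 CPM in hair cells and 135.03 ± 95.7 CPM in supporting cells (log2 ratio -3.73). SLC33A1, which brings acetyl-CoA into the endoplasmic reticulum, averaged 20.1, 24.3, 29.6, 29.1 and 42.1 CPM by plate in hair cells, against 249.3, 150.8, 182.4, 160.3 and 184.4 CPM in supporting cells (log2 ratio -2.63). Plate ranges of the classes do not overlap for SLC35G1, SLC35F1, SLC35E3 or SLC33A1. SLC35B1, an ATP/ADP exchanger of the endoplasmic reticulum, took the most reads of those not called, with 125.7 ± 33.3 CPM in hair cells and 198.1 ± 23.1 CPM in supporting cells. Its direction depended on the average, since the log2 ratio of mean CPM was -0.65 and the difference of mean log2 values was 0.98.

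Among 12 vitamin and choline carriers 0 were called higher and 1 lower in hair cells. SLC23A2, the carrier of ascorbate (vitamin C), averaged 27.5, 75.97, 86.6, 5.24 and 76.1 CPM by plate in hair cells, against 540.1, 339, 208.4, 329.6 and 155.8 CPM in supporting cells. The ranges do not overlap and the log2 ratio was -2.51, but by the difference of mean log2 values it was -1.48 and no longer called. SLC44A3, of the choline carrier-like family, had 69.6 ± 25.1 CPM in hair cells and 235.03 ± 75.1 CPM in supporting cells, lower in hair cells on all 5 plates and under 4-fold. The riboflavin carrier SLC52A3 had 56.5 ± 20.6 CPM in hair cells and 17.4 ± 20.4 CPM in supporting cells, and the folate carrier SLC19A1 had 50.8 ± 37.7 CPM in hair cells and 15.7 ± 20.3 CPM in supporting cells.

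Organic ion, lipid and hormone carriers had the lowest median of any group, -2.11 over 9 members, with 0 called higher and 2 lower. SLC51AL, named for its likeness to a subunit of a bile acid and steroid carrier, averaged 1.87, 2.38, 0, 0 and 25.5 CPM by plate in hair cells, against 134.9, 143.6, 208.7, 98.8 and 158.2 CPM in supporting cells (log2 ratio -4.43), and reached 10 CPM in 2.96% of hair cells and 36.9% of supporting cells. Reads shared with a close copy could be counted to it, so its value is uncertain. SLC22A23, an orphan relative of the organic ion carriers, averaged 59.98, 42.7, 15.8, 42.1 and 23.8 CPM by plate in hair cells, against 86.8, 418, 264.9, 278.7 and 338 CPM in supporting cells (log2 ratio -2.88). Its span overlaps PSMG4. By the difference of mean log2 values SLC22A23 was -2.40 and did not meet the rule. SLC27A1, which imports fatty acids, had 26.6 ± 17.7 CPM in hair cells and 118.5 ± 50.4 CPM in supporting cells and was lower in hair cells on 4 of 5 plates.

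Metal and heme carriers had 20 members and 0 calls in either direction, with a median log2 ratio of -0.05. SLC48A1, a heme carrier of lysosomes, took the most reads, with 106.7 ± 19.5 CPM in hair cells and 202.7 ± 105.5 CPM in supporting cells. Its log2 ratio was -0.92, while the difference of mean log2 values was 0.09. SLC39A11, a zinc carrier, had 158.01 ± 57.2 CPM in hair cells and 68.7 ± 36.8 CPM in supporting cells, higher in hair cells on all 5 plates and under 4-fold (log2 ratio 1.19). SLC40A1, the iron exporter ferroportin, had 1.49 ± 3.33 CPM in hair cells and 69.9 ± 55.5 CPM in supporting cells, of which 9.52% reached 10 CPM. Of 4 measured genes of zinc and metal buffering 0 were called. Both phosphate carriers stayed uncalled too. SLC20A2, a sodium-phosphate carrier, had 26.7 ± 11.9 CPM in hair cells and 148.6 ± 84.9 CPM in supporting cells (log2 ratio -2.43), lower in hair cells on 4 of 5 plates. Without plate 3 it was called lower, at -2.95, and its span overlaps SMIM19. The last 4 members are not carriers or were assigned no substrate, and 0 of them were called. SLC7A6OS, named after a neighbouring carrier, took the most reads of these, with 122.3 ± 51.2 CPM in hair cells and 114.8 ± 94.96 CPM in supporting cells.

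Members were also counted together in single cells. The median hair cell had 7 of the 10 members called higher in hair cells at 10 CPM or more and 1 of the 7 called lower. In the median supporting cell 1 of the 10 and 3 of the 7 were found. These counts describe members that were chosen on the same cells. The 18 cells with both OTOF and GJB6 had a median of 5.5 of the 10 and 2 of the 7. Whether such wells held more than 1 cell was not tested. SLC17A8 and SLC9A9 were found together in 82.8% of hair cells, with 16 cells holding SLC17A8 alone, 10 SLC9A9 alone and 3 neither. SLC17A8 and SLC25A22 were found together in 71.6%, with 35 cells holding SLC17A8 alone, 8 SLC25A22 alone and 5 neither. SLC17A8, SLC9A9 and SLC25A22 were each found in most hair cells. The joint share expected from that was not computed, so no link between these genes is read.

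Hair cells were then divided by OCM, which encodes oncomodulin, a calcium-binding protein that is strong in some hair cells. OCM was at 1000 CPM or more in the OCM-high hair cells and lower in the 66 OCM-low cells, with 18, 22, 17, 24 and 22 OCM-high cells and 12, 14, 12, 14 and 14 OCM-low cells on plates 2 to 6. The division is a range of 1 gene and not a cell type, and 27 cells lay within 2-fold of the limit. Depth was close in both, with a median of 3500 genes in OCM-high cells and 3421 in OCM-low cells, and 38 members in OCM-high cells and 37 in OCM-low cells after thinning to 50000 counts. Of the type I markers other than OCM, KCNAB1 averaged 985 CPM in OCM-high cells and 22.9 CPM in OCM-low cells, ATP2B2 762 CPM in OCM-high cells and 47.7 CPM in OCM-low cells, and CALB1 17.97 CPM in OCM-high cells and 25.5 CPM in OCM-low cells. Summed glial markers ran from 13.3 to 45.8 CPM in OCM-high cells and from 34.995 to 221.4 CPM in OCM-low cells. PMP22 alone averaged 17.5 CPM in OCM-high cells and 103.9 CPM in OCM-low cells, and the part of these markers in the values below was not tested. A member was called here at 2-fold, with the other conditions as above. Of the members, 5 (2.66%) were called higher in OCM-high cells, where 1.85% of all measured genes were. None was called lower (0 members), where 1.07% of all genes were. By the difference of mean log2 values 6 were called higher and 2 lower, with no share over all genes given for that measure. The median log2 ratio was 0.03 over members and 0.06 over all genes.

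The 5 members carry different substrates. SLC16A7, the lactate and pyruvate carrier MCT2, averaged 263.2, 255.6, 202.4, 129.7 and 146.6 CPM by plate in OCM-high cells, against 111.2, 43.8, 65.9, 15.9 and 30.9 CPM in OCM-low cells. All OCM-high plates lie above all OCM-low plates. Means were 199.5 ± 60.995 CPM in OCM-high cells and 53.5 ± 37.1 CPM in OCM-low cells (log2 ratio 1.88), and 57.3% (47.2 to 66.98%) of OCM-high and 24.2% (14.5 to 36.4%) of OCM-low cells reached 10 CPM. By OCM level, the share was 27.6%, 32.5% and 66.7% of hair cells under 100 CPM of OCM, from 100 to under 5000, and at 5000 or more. SLC4A4, the sodium-bicarbonate cotransporter, averaged 88.7, 81.2, 159.5, 78.5 and 57.5 CPM by plate in OCM-high cells, against 21.4, 45.3, 22.5, 45.7 and 21.3 CPM in OCM-low cells (log2 ratio 1.55), also without overlap. Its share was 48.5% of OCM-high and 21.2% of OCM-low cells, and 13.8%, 33.8% and 53.97% across the 3 levels of OCM. Its span overlaps the gene GC. Both members were present together in 35 hair cells, SLC16A7 alone in 40, SLC4A4 alone in 29 and neither in 65.

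SLC26A4, pendrin, averaged 70.2, 119.4, 114.5, 67.1 and 78.2 CPM by plate in OCM-high cells, against 8.72, 24.97, 91.2, 51.98 and 0.725 CPM in OCM-low cells (log2 ratio 1.32), with overlapping ranges. It reached 10 CPM in 34.95% of OCM-high and 22.7% of OCM-low cells, and in 20.7%, 22.1% and 44.4% across the 3 levels. With a stricter gate (OTOF at 300 CPM, GJB6 limit at 5000 CPM) the ratio was 0.43 and it was not called. Of the hair cells, 23 held SLC4A4 and SLC26A4 together, 41 SLC4A4 alone, 28 SLC26A4 alone and 77 neither. The remaining pair were less firm. SLC35A3, a carrier of UDP-N-acetylglucosamine into the Golgi, averaged 130.4, 39.6, 67.3, 20.5 and 21.005 CPM by plate in OCM-high cells, against 52.9, 16.6, 3.08, 7.01 and 19.02 CPM in OCM-low cells (log2 ratio 1.45), while its share of cells went against this, at 25.2% of OCM-high and 31.8% of OCM-low cells, so no order is read from it. Its span overlaps MFSD14A. SLC39A10, a zinc carrier, averaged 65.1, 160.3, 28.995, 70.2 and 50.6 CPM by plate in OCM-high cells, against 0, 108.8, 24.7, 30.4 and 14.5 CPM in OCM-low cells (log2 ratio 1.05). With the OCM limit at 100 CPM its ratio turned to -0.21. SLC35A3 lost its call without plate 2 or plate 4 (log2 ratios 1.62 and 1.11), and SLC39A10 without plate 2 or plate 6 (0.78 and 0.97).

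**Figure D4:**
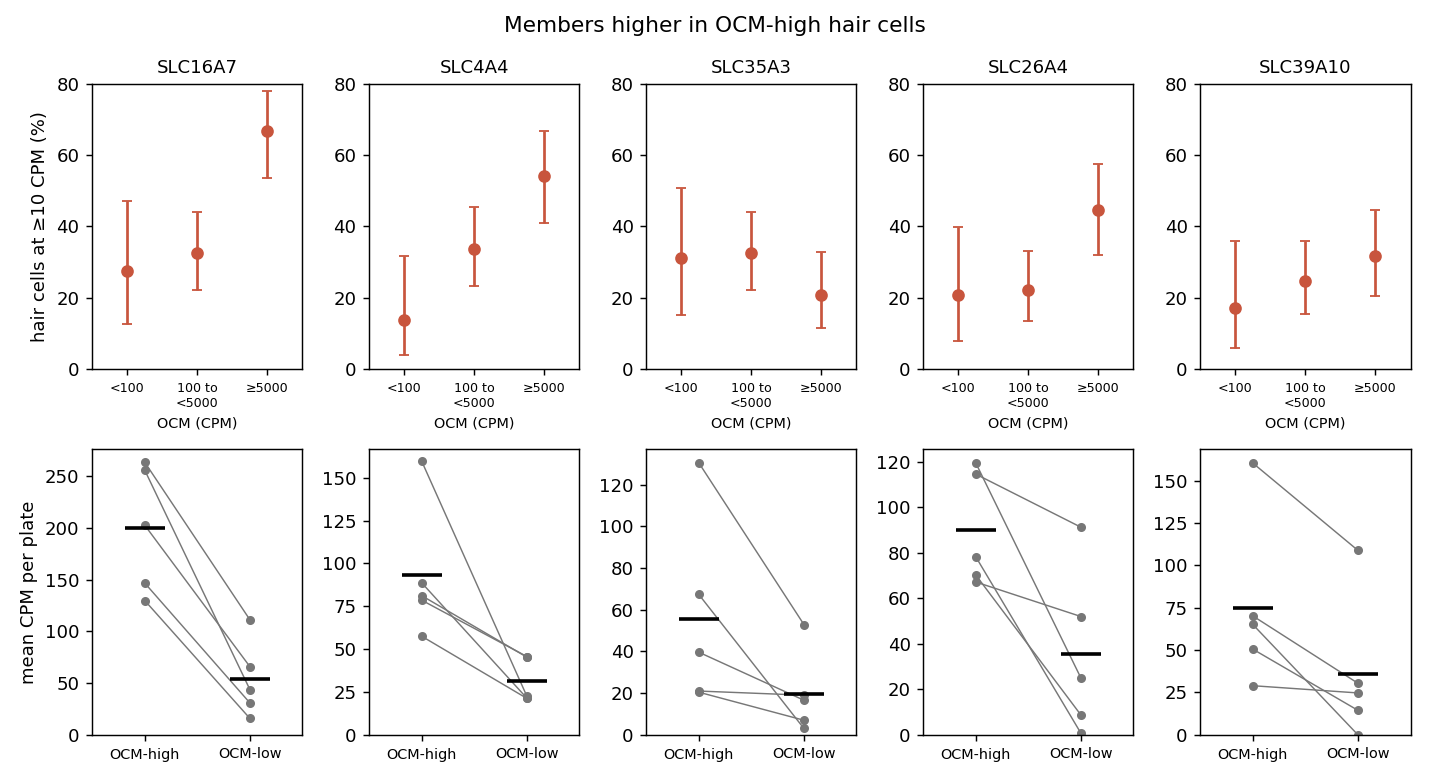
Upper row, share of hair cells at 10 CPM or more (y axis, %) in 3 ranges of OCM (x axis, 29, 77 and 63 cells), with exact binomial 95% intervals; lower row, mean CPM by plate (y axis) in OCM-high and OCM-low hair cells, with lines joining the same plate and bars at the mean of the plates. All 5 members are higher in OCM-high cells on every plate because the call rule required it. In the upper row SLC16A7 runs from 27.6% to 66.7% and SLC4A4 from 13.8% to 53.97%, while SLC35A3 is lowest in the highest range.

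The following members lie outside the call rule and were chosen after their values were seen, as were those named above that were neither called nor the most read of their group. SLC7A2, the cationic amino acid carrier, reached 10 CPM in 17 OCM-high cells (16.5%, 9.92 to 25.1%) and had 0 counts in the 66 OCM-low cells, a count that allows up to 4.55% of cells at a floor of 3 cells and 5.44% by the exact 95% interval. All 17 cells were among the 63 with OCM at 5000 CPM or more, and each plate contributed, with plate means of 35.6, 19.1, 57.3, 54.8 and 47.8 CPM in OCM-high cells. Against the floor of 3 counts over the OCM-low cells, SLC7A2 was at least 308-fold higher in OCM-high cells, in pooled reads. The span of SLC7A2 overlaps MTMR7. SLC34A2, a sodium-phosphate carrier, had 31.4 ± 16.9 CPM in OCM-high cells (10.7% at 10 CPM or more) and 0 counts in OCM-low cells. Neither reached the 25% of cells needed for a call. With the OCM limit at 5000 CPM SLC7A2 met the call rule, at a log2 ratio of 6.11. SLC9A9 was lower in OCM-high cells on all 5 plates, at 1411, 1889.7, 1220.1, 1604 and 1295 CPM, against 4144, 2862, 1701, 3860.5 and 1959.8 CPM in OCM-low cells. Its ranges overlap, and the log2 ratio of -0.97 is just inside 2-fold. Without plate 3, 4 or 6 it passed the limit, at -1.08, -1.05 and -1.04. It also did so with the OCM limit at 5000 CPM (-1.09) and by the difference of mean log2 values (-2.05). With a looser gate (OTOF at 10 CPM, GJB6 limit at 300 CPM) it was -1.03. SLC9A7 had 638 ± 120.2 CPM in OCM-high cells and 992 ± 336 CPM in OCM-low cells and was lower on 4 of 5 plates. The zinc carrier SLC39A11 (116.7 ± 40.2 CPM in OCM-high cells and 220.9 ± 133.1 CPM in OCM-low cells) and the glutamine carrier SLC38A1 (213.5 ± 53.8 CPM in OCM-high cells and 332 ± 117.4 CPM in OCM-low cells) were likewise lower on all 5 plates and under 2-fold. SLC39A11 met the call rule without plate 4 (-1.04), without plate 5 (-1.16) and with cells of at least 1500 genes and 100000 counts (-1.08). SLC38A1 met it with the OCM limit at 5000 CPM (-1.77) and by mean log2 values (-1.35). SLC7A14 was higher in OCM-high cells on all 5 plates, with 344 ± 64.01 CPM in OCM-high cells and 179.2 ± 75.6 CPM in OCM-low cells (log2 ratio 0.94), and it met the call rule under 6 alternatives, at up to 1.91 by mean log2 values. SLC17A8 was lower in OCM-high cells on 3 of 5 plates, though higher by the difference of mean log2 values (0.25), with 940.0 ± 209.98 CPM in OCM-high cells and 1317 ± 781 CPM in OCM-low cells, and was found in 95.1% of OCM-high and 87.9% of OCM-low cells.

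Among the partner genes, 2 were called higher in OCM-high cells and 1 lower. Of all measured genes, 1.85% were called higher and 1.07% lower. With so few calls, no trait of the partner genes is read. LDHB averaged 2396, 3533, 3467, 3564 and 4445 CPM by plate in OCM-high cells, against 6347, 8411, 6187, 7772 and 7348 CPM in OCM-low cells (log2 ratio -1.05), with no overlap. Its ratio came to -0.99 without plate 2 and -0.995 without plate 3, so it stands at the 2-fold limit. LDHA was not called and went the other way, with 1662 ± 321 CPM in OCM-high cells and 1145 ± 519 CPM in OCM-low cells. It was higher in OCM-high cells on all 5 plates with overlapping ranges (log2 ratio 0.54). AK1 had 116.8 ± 20.9 CPM in OCM-high cells and 56.1 ± 10.4 CPM in OCM-low cells (log2 ratio 1.04), and 0.97 without plate 4. GCLM, the regulatory subunit of the enzyme that starts glutathione synthesis, had 66.6 ± 42.1 CPM in OCM-high cells and 25.1 ± 15.1 CPM in OCM-low cells (log2 ratio 1.37). Without plate 6 its ratio was 0.65. By list, the calls were 1 higher and 0 lower of 10 genes for taurine, cysteine and glutathione, 1 higher and 0 lower of 4 for creatine and adenylate shuttling, 0 higher and 1 lower of 15 for glycolysis, lactate and glycogen, and 0 for the other 4 lists.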

How the data were processed

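The authors deposited 1 table per cell for 300 cells, each holding the estimated counts (expected counts, not scaled) that the authors had made for 13643 gene rows. Per the submitters' processing notes, STAR, RSEM and FastQC were used. Build and annotation: not given in the sources used here. Rows of 12 repeated symbols were summed, and CPM were taken from each cell's total, so no transcript length enters. Cells with at least 1000 genes and 50000 counts were kept (276), with 169 hair cells (103 OCM-high, 66 OCM-low) and 84 supporting cells. The members were 188 of 246 matching symbols, of which 185 matched RefSeq. Class values are means of the plate means, so each plate weighs the same. Expected counts were rounded only for sums and for thinning. Wells were sorted singly, and no doublet caller was run.

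Members and lists, the markers and the partner genes among them, were chosen with earlier results of these data known. Substrate groups were corrected after values were seen: SLC9A3R1, SLC9A3R2, SLC7A6OS and SLC4A1AP, which are not carriers, went to an unassigned group and SLC35G to the SLC35 family. Named were, per substrate group, up to 3 members called in each direction and the most read one, up to 8 OCM calls in each direction, and up to 3 called partners per list. Plates are not animals, so SD over plates is technical and biological spread together. Reads carry no molecular identifiers. The procedure was tested on simulated data. Tools were Python 3.11.15, numpy 2.4.6, pandas 2.3.3, scipy 1.17.1 and matplotlib 3.10.9. Alternatives covered the pseudocount, cell weighting, scaling, cell and gene filters, gates, OCM limit, fold and leaving out each plate. Results for a few genes are not reported here.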

Additional observations from a re-analysis of the deposited data

Results flagged for a closer look

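In 5 of 64 sets of 5 plate means, 1 plate stood apart from the others by Dixon's ratio, above the critical value of 0.71; chance gives about 1 in 20. SLC2A8, the glucose carrier GLUT8, averaged 111.5 CPM in hair cells of plate 4, against 178.3 to 201.4 CPM on the other plates. SLC25A14, the uncoupling protein relative, averaged 489.95 CPM in hair cells of plate 3, against 318 to 340.3 CPM on the others. CDO1, the dioxygenase that acts on cysteine, averaged 1882 CPM in supporting cells of plate 2, against 1082 to 1271 CPM on the others. GCLM, of glutathione synthesis, averaged 141.4 CPM in OCM-high cells of plate 6, against 40.8 to 52.2 CPM on the others, and without plate 6 it was not called. SLC39A11, the zinc carrier, averaged 454 CPM in OCM-low cells of plate 2, against 139.3 to 208.2 CPM on the others.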

How the results depend on the processing

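No paired analysis was possible because the labels give 1 group, with no replicate numbers shared between groups; the cell classes were instead compared plate by plate, as the call rule requires. Between hair cells and supporting cells, 10 members were called higher and 7 lower. The higher count was 21 by the difference of mean log2 values and 5 at a limit of 8-fold, where the lower count was 4. For the alternatives in this section no share over all genes is given, so their counts are not set against a background. Leaving out 1 plate at a time gave 9 to 13 higher and 7 to 9 lower. Between OCM-high and OCM-low cells, 5 members were called higher and 0 lower. The higher count was 2 with the stricter gate and 0 at a limit of 4-fold, and leaving out 1 plate gave 3 (without plate 2) to 9 (without plate 5). The lower count was 2 by mean log2 values, 2 with cells of at least 1500 genes and 100000 counts, 1 with the looser gate, 2 with the OCM limit at 100 CPM and 2 with it at 5000 CPM. Without 1 plate it ran from 0 to 4 (without plate 6). The OCM median over members was -0.0536 for genes at 10 CPM in at least 20 cells, 0.19 with the OCM limit at 100 CPM and -0.0597 with it at 5000 CPM. SLC39A10 reversed to -0.21 with the OCM limit at 100 CPM, and GCLM to -0.17 with it at 5000 CPM. The cause of these changes was not tested. SLC16A7 and SLC4A4 kept their OCM calls under every alternative run except the 4-fold limit.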
